A study of Mus musculus with 39 samples.

Results

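The genes described here are the named genes of the mouse major histocompatibility complex (MHC), called H2 in the mouse, together with the light chain and the peptide loading machinery of class I molecules. The members were all array probes whose gene name begins with H2-, plus the probes of B2m, Tap1, Tap2 and Tapbp. This gave 59 probes of 45 genes, out of 55681 probes on the array, and 55 of these probes, for 41 genes, carried an H2 name. By role, 5 probes belonged to a class Ia group set by gene name (H2-K1, H2-D1 and H2-K2). The H2-K2 probes are listed under a non-coding RefSeq transcript, so H2-K2 is not a classical heavy chain gene, although the class Ia and heavy chain counts below include it. Another 10 probes belonged to the class Ib genes of the Q region, 10 to those of the T region and 15 to those of the M region. A further 6 probes belonged to class II chains, 7 to class II peptide exchange factors, 4 to the light chain and loading genes, and 2 to H2-Ke2 and H2-Ke6, which lie in the region and are not known to take part in antigen presentation.

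The study asked how selective histone deacetylase inhibitors (HDACi) alter gene expression in early embryos. Levels were measured on 39 1-colour microarrays, with RNA from 100 oocytes or embryos on each, in 13 conditions with 3 arrays per condition. All embryos came from IVF of oocytes of 8- to 9-week-old B6D2F1 females with sperm of 15- to 20-week-old ICR males. The untreated conditions were germinal vesicle (GV) oocytes, metaphase II (MII) oocytes, 1-cell, 2-cell, 4-cell and 8-cell embryos, morulae and blastocysts. The treated embryos were exposed for 6 h, from 4 h post insemination (hpi), to 10 µM T247, which inhibits HDAC3, or to 10 µM MGCD0103, which inhibits the class I enzymes HDAC1, HDAC2 and HDAC3. Embryos given T247 were sampled as 1-cell embryos (12 hpi), 2-cell embryos (24 hpi) and 4-cell embryos (48 hpi), and those given MGCD0103 as 1-cell and 2-cell embryos at the same times. The controls of these stages were cultured without inhibitor, and both inhibitors were compared with the same control arrays. B6D2F1 oocytes carry the H-2b and H-2d haplotypes, and ICR is an outbred stock. How well each probe matches the alleles of these embryos was not tested.

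Class I molecules consist of a polymorphic heavy chain and the light chain beta-2 microglobulin, and they display peptides from inside the cell on its surface. The peptides are cut by the proteasome, pumped into the endoplasmic reticulum by the TAP transporter and loaded with the help of tapasin and other chaperones. Class II molecules consist of an alpha and a beta chain, display peptides from endocytosed material and are best known from professional antigen presenting cells of the immune system. Embryos carry paternal antigens that are foreign to the mother, and some class Ib molecules are known to be made before implantation.

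A level below is the log2 of the Agilent processed signal after smooth quantile normalization, and a difference of 2 levels is a log2 fold change (LFC), given ± its standard error (SE). A member was tested in a comparison where both conditions had at least 1 of 3 arrays with a positive and significant signal, and it was called where the absolute LFC was at least 1 and the adjusted p of limma was below 0.05. Where a probe was not well above background on any array of one condition, only a lower bound of the fold is given, and no fold where that bound was under 1. Levels of different probes cannot be compared with each other. The study describes the arrays of a condition as biological replicates from independent samples. The SE and p-values rest on the spread between such arrays, shared for each probe over all 13 conditions and not taken from the compared conditions alone. Each array holds bulk RNA, in which fewer cells carrying a transcript and less transcript per cell cannot be told apart.

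The arrays lay on 6 slides. Untreated, T247 and MGCD0103 samples never shared a slide, so slide and treatment cannot be told apart. The 3 arrays of each untreated condition lay on 3 slides, 1 for each replicate number. Those of each treated condition at the 1-cell and 2-cell stages lay on 1 slide. The spread of these controls thus includes slide, and that of the treated arrays does not. The 2-cell control arrays were the least alike of any condition (lowest correlation 0.9557 across probes, against 0.9788 or more elsewhere). Control replicate 1 stood apart from the other two, and the calls against control, the calls between stages and the list counts that changed without it are given beside the results. Summed signal of 5 oocyte markers fell from 892300–945500 in GV oocytes to 405.9–459.1 in blastocysts, in the order of the labels. Markers of other cell types moved with the treatment: of 8 leukocyte genes, 3 were called higher at the 1-cell stage with each inhibitor (Cd3e, Cd79a and Csf1r). Their summed signal was 2039–2855 in the controls, 3409–3570 with T247 and 3166–3758 with MGCD0103, and at the 2-cell stage 4776–9272, 9266–10130 and 7593–8125. Among the defining leukocyte markers, Lyz2 was above background on no array and Ptprc on no control or T247 array of these stages. Of 6 blastocyst genes, 5 were called higher with T247 and 4 with MGCD0103 at the 2-cell stage, and 3 with each without control replicate 1. Of all probes tested, 6.79% were called higher with T247 and 4.02% with MGCD0103 at the 1-cell stage, and 9.03% and 11.8% at the 2-cell stage. The part of the leukocyte and blastocyst markers in the results was not tested.

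Between 22 and 38 of the 59 member probes were well above background on all 3 arrays of a condition. The share was lowest in MII oocytes, where 37.3% of members and 42.6% of all probes were detected on all 3 arrays. It was 57.6% of members in 2-cell controls, where 45.2% of all probes were detected. The 2-cell embryos treated with T247 had the highest share, 64.4% against 51.3% of all probes. On all 39 arrays, 19 member probes were well above background, and 12 were so on none (6 of the M region, 3 of the T region, 1 class II chain and 2 peptide exchange probes). The members called in no comparison with an inhibitor and in no developmental step were H2-T18, H2-M1, H2-M10.1, H2-M10.6, H2-M3, H2-M9, H2-Ea-ps, H2-DMb2 and H2-Ob.

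**Figure D1:**
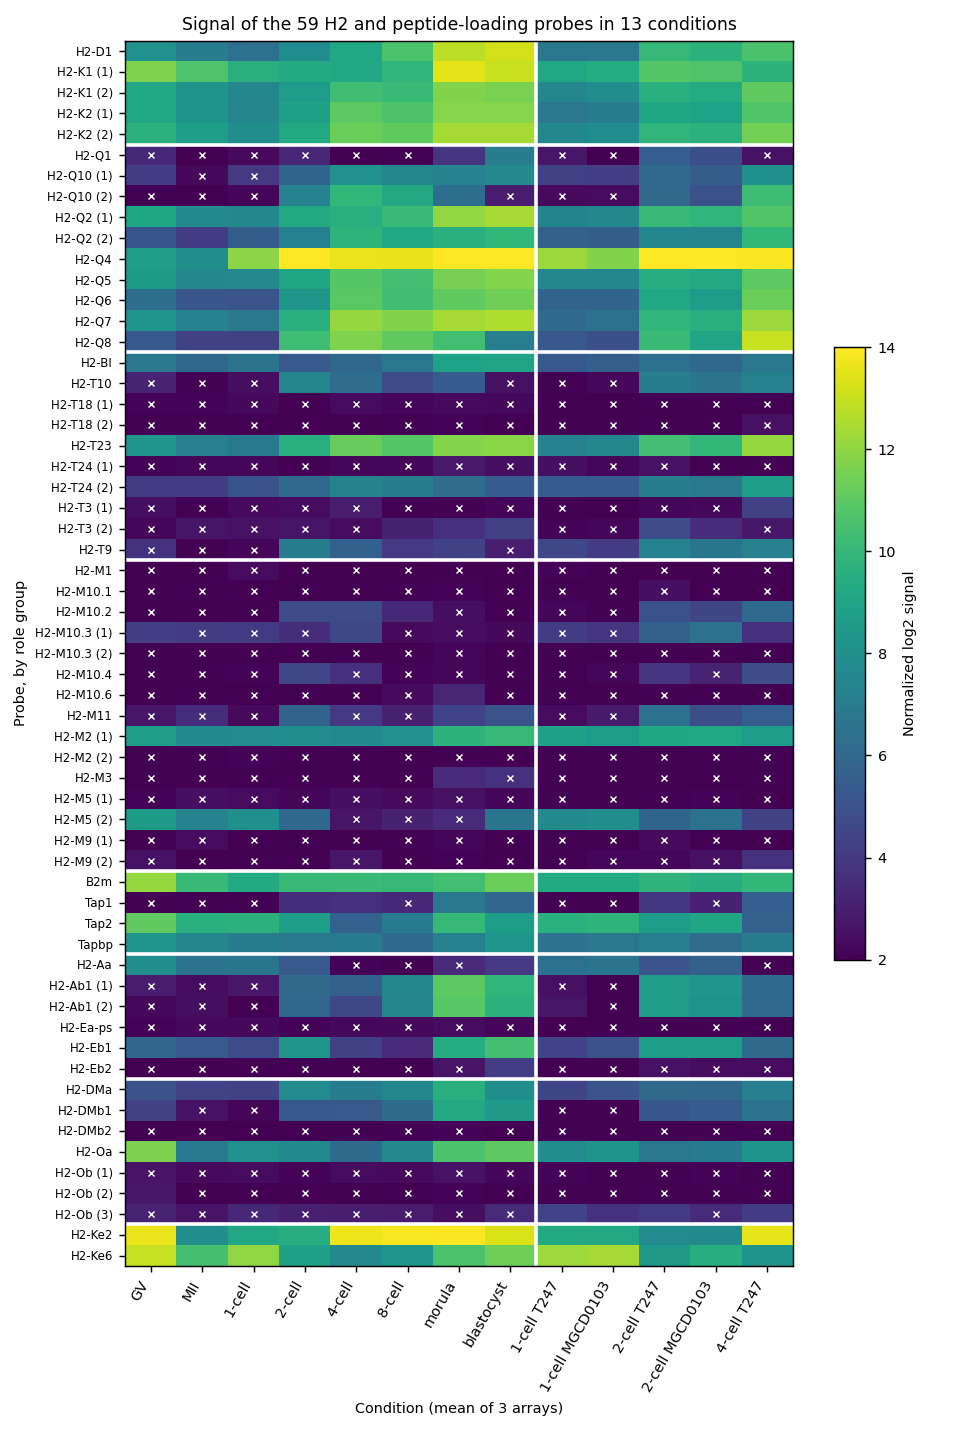
Mean level (log2 signal, colour scale) of the 59 member probes, 1 row each and grouped by role, in the 13 conditions, with untreated conditions left of the white line and treated embryos right of it. A white cross marks a probe whose 3 arrays were all not well above background. The Q region rows brighten from the 1-cell to the 4-cell stage, class II rows such as H2-Ab1 and H2-Eb1 brighten in morulae and blastocysts, and most M region rows stay dark and crossed.

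In untreated development, 4 of 5 class Ia probes were called higher in the step into the 2-cell stage and 4 of 5 in the step into the 4-cell stage, and all 5 from the 8-cell stage to the morula, when 6 of 8 class II probes tested were also called higher. Both probes of the non-coding H2-K2 were among the class Ia probes called in each of these steps. Of the M region probes, 1 of 5 tested was called higher and 1 lower into the 2-cell stage, and 0 of 6 higher and 2 lower into the 4-cell stage. Between 1-cell and 2-cell embryos, 21 of 38 tested members (55.3%) were called higher and 4 (10.5%) lower, beside 16.3% higher and 26.8% lower of all probes tested. The median LFC of the members was 1.24, and that of all probes tested was -0.33. Among class I heavy chains, 18 of 27 were called higher and 1 lower. From the 2-cell to the 4-cell stage, 14 of 40 members (35%) were called higher and 9 (22.5%) lower, against 21.8% and 28.7% of all probes. Here the roles parted, since 13 of 26 heavy chain probes were called higher while 4 of 8 class II probes were called lower and 0 higher. From the 8-cell stage to the morula, 20 of 39 members (51.3%) were called higher and 1 (2.56%) lower, against 23.9% and 5.95%. These included 10 of 25 heavy chain probes and 3 of 4 light chain and loading probes. This split also depended on scaling, with 14 higher and 5 lower under 75th percentile scaling and 13 and 4 under quantile normalization. Without 2-cell control replicate 1, 21 members were called higher and 3 lower from the 1-cell to the 2-cell stage, and 15 higher and 11 lower between 2-cell and 4-cell embryos. The changed calls of the first step were B2m and H2-Q1, newly higher, H2-K1 probe 2 and H2-T24, no longer higher, and Tap2, no longer lower. Those of the second were H2-M10.3, newly higher, H2-DMa, H2-M10.4 and H2-T10, newly lower, and H2-Ke6, no longer lower.

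In the other steps fewer members were called, and some of these splits depended on scaling as well. From GV to MII oocytes, 0 of 36 tested members were called higher and 17 (47.2%) lower, against 0.694% and 36.3% of all probes, and under 75th percentile scaling the split was 4 higher and 3 lower. From MII oocytes to the 1-cell stage, 6 of 34 (17.6%) were called higher and 2 (5.88%) lower, against 14% and 3.67%, and under the same scaling 4 higher and 7 lower. From the 4-cell to the 8-cell stage, 5 of 38 (13.2%) were called higher and 4 (10.5%) lower, against 7.02% and 5.69%. From the morula to the blastocyst, 4 of 41 (9.76%) were called higher and 7 (17.1%) lower, against 16% and 6.53%.

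With the inhibitors, few members were called at the 1-cell stage, and the counts were larger at the 2-cell and 4-cell stages. At the 1-cell stage, T247 gave 2 called members of 39 tested, both higher (5.13%, against 6.79% higher and 0.911% lower of all probes). MGCD0103 gave 1 of 38 (2.63%, against 4.02% higher and 0.658% lower of all probes). In 2-cell embryos, 9 of 43 members (20.9%) were higher and 3 (6.98%) lower with T247, beside 9.03% and 13.6% of all probes. With MGCD0103, 7 of 44 (15.9%) were higher and 5 (11.4%) lower, beside 11.8% and 13.1%. In 4-cell embryos, 14 of 41 members (34.1%) were higher with T247 and 0 lower, beside 12% and 5.25%. The median LFC of members with T247 was 0.32 at the 2-cell stage and 0.75 in 4-cell embryos, where the medians of all probes tested were -0.21 and 0.027. With MGCD0103 at the 2-cell stage it was 0.24, and that of all probes 0.042. Leaving out 2-cell control replicate 1 gave 10 higher and 5 lower with T247 and 7 higher and 8 lower with MGCD0103. Newly called were H2-T24 (higher), H2-M10.4 and H2-Oa (lower) with T247, and H2-M5 (higher), H2-M11, B2m and Tap1 (lower) with MGCD0103, and H2-Q1 lost its call with MGCD0103. By role, class I heavy chains were called higher for 7 of 29 probes with T247 at the 2-cell stage, for 5 of 30 with MGCD0103 and for 10 of 27 with T247 at the 4-cell stage, and lower for 1, 3 and 0.

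**Figure D2:**
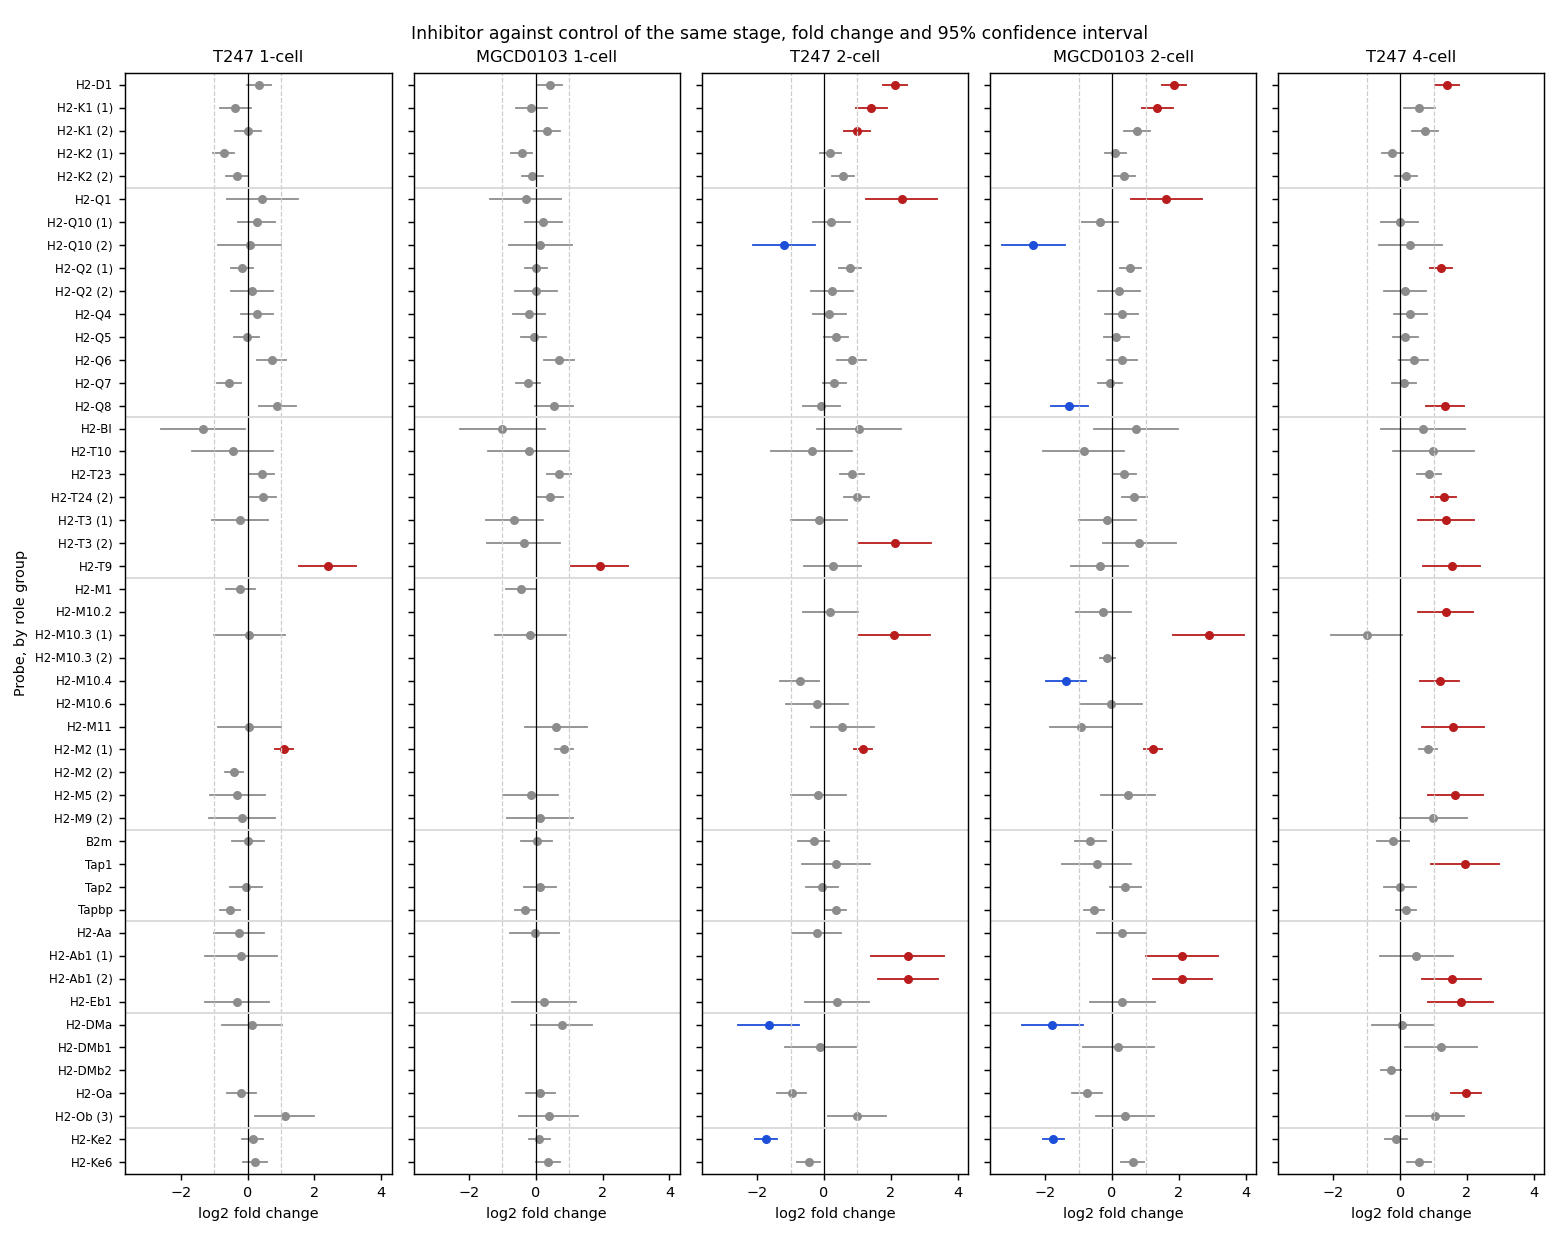
LFC of each tested member (treated minus control of the same stage, points) with its 95% confidence interval (bars) in the 5 inhibitor comparisons, 1 row per probe. Red points were called higher, blue points lower and grey points were not called, the dashed lines stand at an LFC of -1 and 1, and untested probes have no point. Points of probes that were not well above background in one condition are fitted differences, for which the text gives only bounds. Red points number 2 and 1 at the 1-cell stage, 9 and 7 in 2-cell embryos and 14 at the 4-cell stage, where there is no blue point.

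H2-D1, a classical class I heavy chain that presents peptides to CD8 T cells, rose over untreated development and was higher with both inhibitors. Its probe read 8.03, 8.13 and 8.06 in GV oocytes, 6.90, 7.09 and 7.25 in MII oocytes and 6.13, 6.74 and 6.21 at the 1-cell stage. It then read 8.16, 7.71 and 7.66 at the 2-cell stage, 9.45, 9.10 and 8.98 in 4-cell embryos and 10.85, 10.42 and 10.52 at the 8-cell stage. Morulae read 13.13, 12.56 and 12.75 and blastocysts 13.40, 13.20 and 13.12, so every array from the morula on lay above every earlier one. The step LFC was 1.48 ± 0.18 into the 2-cell stage, 1.33 ± 0.18 into the 4-cell stage, 1.42 ± 0.18 into the 8-cell stage and 2.22 ± 0.18 into the morula, all called (adjusted p 4.93e-07 or lower), and 0.42 ± 0.18 into the blastocyst, which was not called.

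With T247 the H2-D1 probe read 10.10, 9.94 and 9.88 at the 2-cell stage, and with MGCD0103 9.52, 9.78 and 9.80. All 6 treated arrays lay above the 3 controls. The LFC was 2.13 ± 0.18 with T247 (adjusted p = 8.9e-11; 4.38-fold) and 1.86 ± 0.18 with MGCD0103 (adjusted p = 9.67e-10; 3.63-fold), or 2.29 and 2.02 without control replicate 1. The 4-cell arrays with T247 read 10.59, 10.80 and 10.34, again all above their controls (LFC 1.40 ± 0.18, adjusted p = 4.6e-07). Before that, at the 1-cell stage, H2-D1 read 6.74, 6.57 and 6.82 with T247 and 6.77, 6.98 and 6.59 with MGCD0103, and neither difference was called (LFC 0.35 ± 0.18 and 0.42 ± 0.18, adjusted p = 0.203 and 0.14).

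H2-K1, the second classical heavy chain, was measured by 2 probes whose profiles differed. The probe printed 10 times on each array (A_51_P198434, here probe 1) was high in oocytes, with 11.69, 11.70 and 11.64 in GV and 10.80, 10.60 and 10.75 in MII oocytes. It read 9.41, 9.71 and 9.52 at the 1-cell stage, 10.09, 8.95 and 9.03 in 2-cell embryos and 9.06, 9.26 and 9.22 at the 4-cell stage. Its levels were thus lowest through early cleavage. After 9.26, 9.98 and 10.26 at the 8-cell stage it reached 13.54, 13.26 and 13.72 in morulae (LFC 3.68 ± 0.22, adjusted p = 4.06e-14) and 12.89, 13.43 and 12.70 in blastocysts. Probe 2 (A_55_P2049647) read 9.44, 9.18 and 9.03 in GV oocytes, 8.53, 8.08 and 8.03 in MII oocytes and 7.74, 7.66 and 7.17 at the 1-cell stage. It rose earlier than probe 1, to 8.93, 8.55 and 8.44 at the 2-cell stage and 10.34, 10.50 and 10.13 in 4-cell embryos (LFC 1.11 ± 0.19 and 1.68 ± 0.19, both called, the first falling to 0.97 and losing its call without 2-cell control replicate 1). Later stages read 10.40, 10.04 and 9.83, 11.96, 11.46 and 11.78 and 11.65, 11.80 and 11.34. The GV to MII change of probe 2 was -1.01 ± 0.19, and it turned to 0.28 under 75th percentile scaling.

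Both H2-K1 probes were higher with T247 at the 2-cell stage. Probe 1 read 10.85, 10.77 and 10.72 with T247 and 10.61, 10.68 and 10.82 with MGCD0103, above all 3 controls, of which replicate 1 was the highest. The LFC was 1.42 ± 0.22 (adjusted p = 6.54e-06) and 1.35 ± 0.22 (adjusted p = 1.47e-05), and 1.79 and 1.72 without that array. Probe 2 of H2-K1 read 9.82, 9.64 and 9.46 with T247 and 9.20, 9.42 and 9.51 with MGCD0103. Its T247 difference stood at the fold limit (LFC 1.00 ± 0.19, adjusted p = 7.79e-05) and was no longer called without control replicate 2 (0.96), control replicate 3 (0.90) or T247 replicate 1 (0.91). The MGCD0103 difference of 0.74 ± 0.19 was not called (adjusted p = 0.00222). In T247 4-cell embryos the H2-K1 probes read 9.64, 10.01 and 9.63 and 11.14, 11.27 and 10.81, under the fold limit against control (LFC 0.57 ± 0.22 and 0.75 ± 0.19). The 1-cell arrays read 9.24, 9.10 and 9.21 with T247 and 9.38, 9.49 and 9.37 with MGCD0103 for probe 1, and 7.65, 7.38 and 7.59 and 7.76, 8.01 and 7.83 for probe 2, and none of these differences was called.

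Probe 2 of H2-K1 shares a run of 29 bases with the probe of H2-T23, shown here in capitals because it bears on which transcripts these signals can be assigned to (array design on mm9; H2-K1 at chr17:34133984-34134043 and H2-T23 within chr17:36167338-36167574 across a splice junction, both on the minus strand).
H2-K1 probe 2: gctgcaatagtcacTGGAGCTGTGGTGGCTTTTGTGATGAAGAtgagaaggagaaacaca
H2-T23: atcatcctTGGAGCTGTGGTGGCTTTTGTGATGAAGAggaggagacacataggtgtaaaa
Signals of members with such shared stretches are uncertain as to gene, and whether a transcript bound the other probe was not tested. The H2-Q7 probe and 1 of the 2 H2-K2 probes were identical at 49 of 60 bases, with a run of 28, and an H2-Q10 and an H2-Q2 probe at 45, with a run of 19. The 2 H2-Ab1 probes were identical at 50 bases with a run of 41, so they are not independent measures of that gene.

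H2-T23 encodes the Qa-1 heavy chain, a class Ib molecule known as a ligand of the inhibitory NKG2A receptors of natural killer cells. Its probe read 8.42, 8.21 and 8.20 in GV oocytes, 7.37, 7.05 and 7.21 in MII oocytes and 6.99, 7.0 and 6.60 at the 1-cell stage. It climbed to 9.64, 9.62 and 9.41 at the 2-cell stage and 11.33, 11.44 and 10.91 in 4-cell embryos, with an LFC of 2.70 ± 0.18 (adjusted p = 5.48e-14) and 1.67 ± 0.18 (adjusted p = 1.09e-09). It stayed high, at 11.18, 10.68 and 10.51 at the 8-cell stage, 12.06, 11.57 and 11.68 in morulae and 12.03, 12.00 and 11.63 in blastocysts, and no later step was called. With T247, H2-T23 read 7.40, 7.29 and 7.17 at the 1-cell, 10.55, 10.32 and 10.31 at the 2-cell and 12.12, 12.38 and 11.75 at the 4-cell stage, and at each of the 3 stages all arrays lay above their controls. The LFC was 0.43 ± 0.18, 0.84 ± 0.18 and 0.86 ± 0.18 (adjusted p = 0.0996, 0.000272 and 0.000299), under the fold limit each time, although the last reached 1.02 and was called without T247 4-cell replicate 3. With MGCD0103 it read 7.54, 7.55 and 7.54 at the 1-cell and 9.84, 9.92 and 10.03 at the 2-cell stage (LFC 0.68 ± 0.18 and 0.37 ± 0.18, adjusted p = 0.00949 and 0.0916), not called. The GV to MII change of H2-T23 was -1.07 ± 0.18 and turned to 0.18 under 75th percentile scaling.

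H2-K2, a class I sequence beside H2-K1, was not called with either inhibitor. Both of its probes rose from the 1-cell to the 2-cell stage (LFC 1.37 ± 0.15 and 1.37 ± 0.16), to the 4-cell stage (2.11 ± 0.15 and 2.01 ± 0.16) and from the 8-cell stage to the morula (1.18 ± 0.15 and 1.30 ± 0.16). From the GV to the MII oocyte, the second of them changed by -1.02 ± 0.16, or by 0.27 under 75th percentile scaling.

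**Figure D3:**
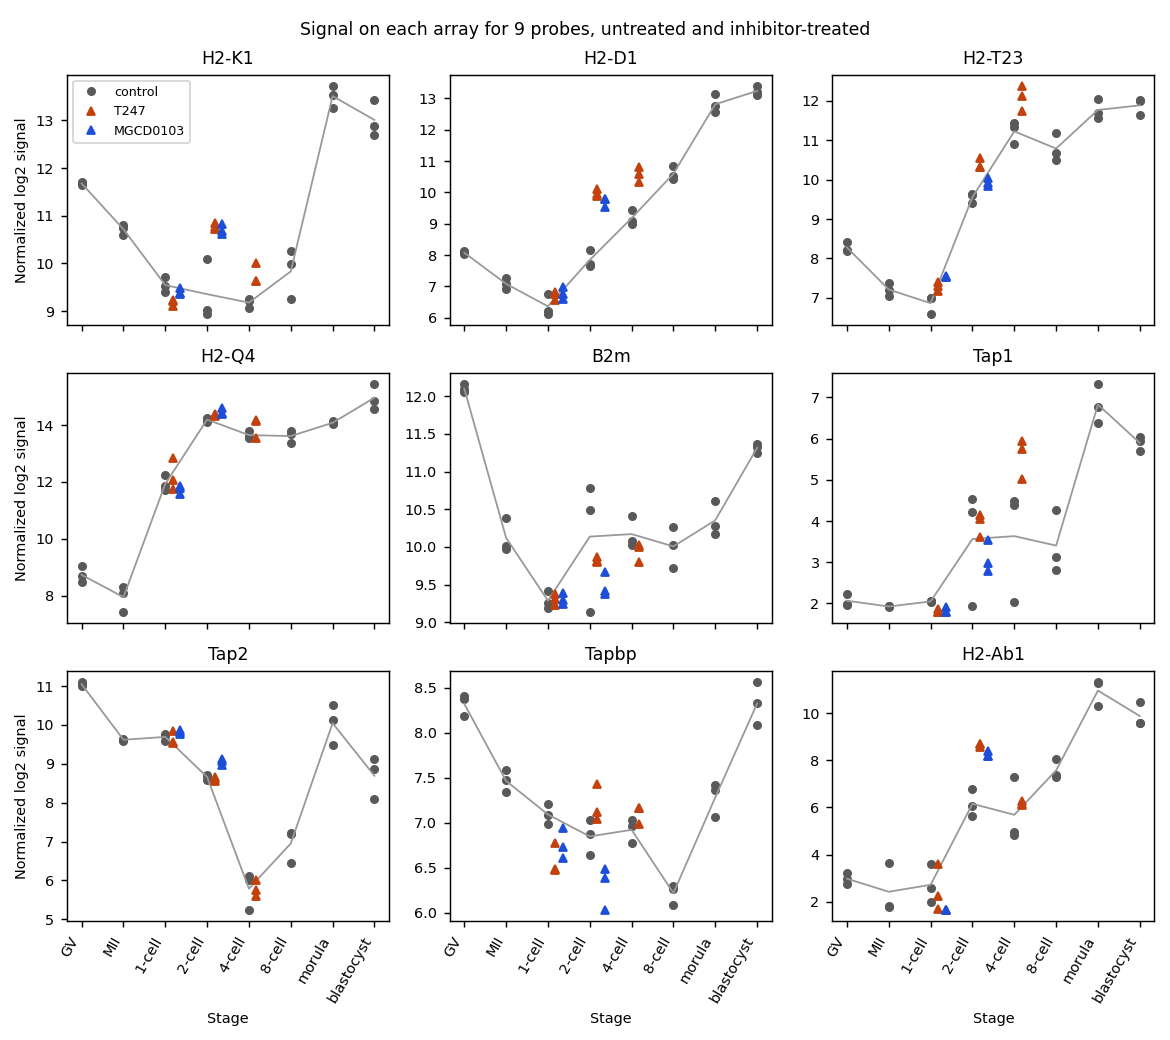
Level (log2 signal, y axis) on each array for 9 probes of 9 genes across stages (x axis), with controls as grey circles and a line through their means, T247 as orange triangles and MGCD0103 as blue triangles. For H2-D1 the treated 2-cell points lie between 9.52 and 10.10, above the controls at 7.66 to 8.16, and for H2-Ab1 (probe A_55_P1962747) between 8.17 and 8.70, above 5.65 to 6.77. The B2m and Tap2 points lie close to the control line at the 1-cell and 4-cell stages.

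Of the 4 light chain and loading probes, that of Tap1 was called in 1 inhibitor comparison and the other 3 in none. B2m, which encodes the light chain shared by all class I molecules, was highest in GV oocytes, at 12.16, 12.05 and 12.09. It read 10.38, 9.97 and 10.01 in MII oocytes, 9.19, 9.41 and 9.26 at the 1-cell, 9.14, 10.78 and 10.49 at the 2-cell and 10.41, 10.02 and 10.08 at the 4-cell stage. Later it read 10.27, 9.72 and 10.03 at the 8-cell stage, 10.61, 10.28 and 10.17 in morulae and 11.32, 11.25 and 11.37 in blastocysts. The fall from GV to MII oocytes was called (LFC -1.98 ± 0.23, adjusted p = 1.32e-08), and no later step was. The step into the 2-cell stage had an LFC of 0.85 ± 0.23, and 1.35, called, without 2-cell control replicate 1, which was the lowest of the 3. With T247, B2m read 9.31, 9.23 and 9.37 at the 1-cell, 9.81, 9.80 and 9.87 at the 2-cell and 9.80, 10.00 and 10.03 at the 4-cell stage, and with MGCD0103 9.39, 9.30 and 9.24 at the 1-cell and 9.38, 9.41 and 9.67 at the 2-cell stage. None of the 5 differences was called, with LFC values of 0.015 ± 0.23, -0.31 ± 0.23 and -0.23 ± 0.23 for T247 and 0.024 ± 0.23 and -0.65 ± 0.23 for MGCD0103. Without 2-cell control replicate 1 the MGCD0103 difference of B2m at the 2-cell stage was -1.15 and called, and that of T247 was -0.81 and not called.

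Tap1 and Tap2 encode the chains of the peptide transporter, and their profiles differed. Tap1 was near background through early development, at 1.97, 2.24 and 1.99 in GV oocytes, 1.92, 1.93 and 1.93 in MII oocytes and 2.06, 2.04 and 2.05 at the 1-cell stage. It read 1.94, 4.53 and 4.22 at the 2-cell, 2.03, 4.38 and 4.49 at the 4-cell and 2.82, 4.27 and 3.12 at the 8-cell stage. Replicate 1, whose arrays shared a slide, was lowest each time. In morulae Tap1 read 6.77, 7.32 and 6.38, at least 6.61-fold higher than at the 8-cell stage (adjusted p = 1.36e-06), and in blastocysts 5.70, 5.95 and 6.03. The T247 arrays read 1.80, 1.86 and 1.80 at the 1-cell, 4.14, 3.61 and 4.04 at the 2-cell and 5.94, 5.75 and 5.02 at the 4-cell stage, and the MGCD0103 arrays 1.80, 1.91 and 1.80 and 2.78, 2.98 and 3.55. Tap1 was called higher with T247 at the 4-cell stage (LFC 1.93 ± 0.50, adjusted p = 0.00317), and without 4-cell control replicate 1 the LFC was 1.13 and no longer called. It was called with neither inhibitor in 2-cell embryos (LFC 0.36 ± 0.50 with T247), but without control replicate 1 it was called lower with MGCD0103, whose arrays were not well above background, so no fold is given.

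Tap2 was high in oocytes, at 11.00, 11.10 and 11.05 in GV and 9.62, 9.60 and 9.64 in MII oocytes, and read 9.71, 9.78 and 9.59 at the 1-cell and 8.58, 8.68 and 8.72 at the 2-cell stage. It was lowest at the 4-cell stage, at 6.10, 6.02 and 5.24, and read 7.19, 6.45 and 7.21 at the 8-cell stage, 10.14, 10.51 and 9.49 in morulae and 8.10, 9.12 and 8.86 in blastocysts. The fall into the 4-cell stage (LFC -2.87 ± 0.23, adjusted p = 3.98e-12) and the rise into the morula (LFC 3.10 ± 0.23, adjusted p = 3.43e-12) were the largest of its steps, and the GV to MII change of -1.43 ± 0.23 became 0.013 under quantile normalization. With T247, Tap2 read 9.84, 9.56 and 9.54 at the 1-cell, 8.55, 8.61 and 8.67 at the 2-cell and 6.02, 5.60 and 5.76 at the 4-cell stage, and with MGCD0103 9.82, 9.88 and 9.76 and 8.98, 9.13 and 9.08. No inhibitor difference of Tap2 was called.

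Tapbp encodes tapasin, the chaperone that bridges the transporter and the class I heavy chain. It read 8.37, 8.41 and 8.18 in GV oocytes, 7.34, 7.47 and 7.58 in MII oocytes, 6.98, 7.21 and 7.08 at the 1-cell and 6.64, 7.03 and 6.87 at the 2-cell stage. It then read 6.77, 7.03 and 6.96 at the 4-cell, 6.09, 6.26 and 6.30 at the 8-cell stage, 7.36, 7.42 and 7.06 in morulae and 8.33, 8.08 and 8.56 in blastocysts. Its called steps were those into the morula (LFC 1.06 ± 0.15) and into the blastocyst (LFC 1.04 ± 0.15). With T247, Tapbp read 6.49, 6.77 and 6.47 at the 1-cell, 7.43, 7.12 and 7.04 at the 2-cell and 7.16, 7.16 and 6.98 at the 4-cell stage, and with MGCD0103 6.94, 6.61 and 6.73 and 6.03, 6.39 and 6.49. All 3 MGCD0103 arrays lay below their controls at both stages, with an LFC of -0.33 ± 0.15 and -0.54 ± 0.15, and neither passed the fold limit. The T247 arrays of Tapbp lay below control at the 1-cell stage (LFC -0.52 ± 0.15, adjusted p = 0.0136) and above it at the 2-cell stage (LFC 0.35 ± 0.15, adjusted p = 0.0597), both under the fold limit.

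Promoters of class I genes are known to carry a kappa B site, an interferon response element, a CRE-like site and a CCAAT box. The 250 bases before the start of the classical heavy chain genes called with both inhibitors and of B2m, which was not, are shown 5′ to 3′ along the gene (RefSeq, GRCm38.p6), with capitals marking GGATTCC (part of the kappa B site), GAAANNGAA and GAANNGAAA (cores of interferon response elements, the second added after the sequences were seen), TGACG (found in cyclic AMP response elements) and CCAAT, each searched on both strands.
H2-K1, chr17:34000348-34000597, minus strand: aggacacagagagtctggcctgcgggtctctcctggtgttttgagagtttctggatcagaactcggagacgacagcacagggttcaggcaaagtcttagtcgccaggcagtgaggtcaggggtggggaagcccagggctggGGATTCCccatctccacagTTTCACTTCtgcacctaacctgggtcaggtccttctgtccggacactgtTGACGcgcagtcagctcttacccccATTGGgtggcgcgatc
H2-D1, chr17:35262844-35263093, plus strand: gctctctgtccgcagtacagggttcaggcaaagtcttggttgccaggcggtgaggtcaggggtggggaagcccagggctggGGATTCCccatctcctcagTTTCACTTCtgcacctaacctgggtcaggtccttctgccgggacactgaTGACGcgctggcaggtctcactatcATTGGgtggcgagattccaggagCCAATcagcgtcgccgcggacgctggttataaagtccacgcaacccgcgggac
B2m, chr2:122147437-122147686, plus strand: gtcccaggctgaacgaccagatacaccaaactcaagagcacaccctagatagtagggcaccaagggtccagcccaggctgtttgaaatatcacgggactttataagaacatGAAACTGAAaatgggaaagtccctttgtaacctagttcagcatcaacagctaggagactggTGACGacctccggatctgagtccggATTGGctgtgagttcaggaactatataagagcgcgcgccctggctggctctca
The H2-K1 and H2-D1 windows held GGATTCC at -109 and -169 from the start, GAANNGAAA on the other strand at -90 and -150 and TGACG at -41 and -101, and the B2m window held GAAANNGAA at -139 and TGACG at -78. No 2 of these matches overlapped. Over windows of 300 bases, 250 before and 50 after the start, 33 member genes had a sequence, and GGATTCC was present in 5 of them (15.2%; H2-K1, H2-D1, H2-Q6, H2-Q7 and H2-M5) and in 3.86% of 27025 genes. TGACG was present in 13 members (39.4%) and in 21% of genes, and CCAAT in 28 (84.8%) and in 37.9%. GAAANNGAA was present in 2 (6.06%; B2m and H2-T23) and in 8.57%, and GAANNGAAA in 8 (24.2%; H2-K1, H2-D1, H2-Q4, H2-Q6, H2-Q7, H2-Q10, H2-M2 and H2-M3) and in 7.56%. Since GAANNGAAA was chosen after member sequences were seen, its share among members is no test. A match is a stretch of letters and not a measured site.

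Most probes of the Q region of class Ib genes rose in early cleavage, with 9 of 10 probes called higher from the 1-cell to the 2-cell stage and 7 of 9 from the 2-cell to the 4-cell stage. H2-Q6, H2-Q7 and H2-Q8 encode Qa-2 antigens, lipid-anchored class I molecules known from preimplantation embryos. H2-Q8 read 4.83, 4.06 and 4.26 at the 1-cell, 10.35, 10.32 and 10.15 at the 2-cell and 11.66, 11.95 and 11.39 at the 4-cell stage (LFC 5.89 ± 0.27 and 1.39 ± 0.27), and dropped to 6.58, 8.12 and 6.71 in blastocysts (LFC -3.26 ± 0.27, adjusted p = 6.41e-11). H2-Q6 rose by 3.24 ± 0.21 and 2.59 ± 0.21 in the same 2 steps, and H2-Q7 by 2.81 ± 0.17 and 2.52 ± 0.17, and neither was called in the step to the blastocyst. An array probe outside the member set, listed under a transcript name only, shares a run of bases with the H2-Q6 probe. H2-Q6 and H2-Q7 were called with no inhibitor at any stage.

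H2-Q8 was one of the members on which the inhibitors differed. At the 2-cell stage it read 10.30, 10.11 and 10.17 with T247, overlapping the controls (LFC -0.082 ± 0.27), and 8.71, 8.97 and 9.29 with MGCD0103, below every control (LFC -1.28 ± 0.27, adjusted p = 0.000337, and -1.24 without control replicate 1). The 4-cell T247 arrays read 12.86, 13.09 and 13.08, all above control (LFC 1.34 ± 0.27, adjusted p = 0.000282). H2-Q10, known as a secreted class I molecule of the liver, fell with both inhibitors at the 2-cell stage by 1 of its 2 probes. That probe of H2-Q10 read 6.35, 7.93 and 7.73 in controls, 5.86, 6.32 and 6.25 with T247 and 4.46, 4.86 and 5.63 with MGCD0103. The MGCD0103 arrays lay below all controls (LFC -2.35 ± 0.46, adjusted p = 0.000119), and the T247 arrays lay just below control replicate 1, the lowest control. The T247 LFC for H2-Q10 was -1.20 ± 0.46 (adjusted p = 0.0374) and -1.69 without control replicate 1. It was not called when control replicate 2 (-0.90), control replicate 3 (-1.003) or T247 replicate 1 (-1.06), 2 (-1.28) or 3 (-1.25) was left out.

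H2-Q1 was near background in most conditions. In 2-cell embryos it read 1.87, 3.75 and 4.23 in controls, 5.82, 5.47 and 5.54 with T247 and 4.71, 4.77 and 5.23 with MGCD0103, all treated arrays above all controls. It was at least 3.02-fold higher with T247 (adjusted p = 0.000531) and at least 1.85-fold higher with MGCD0103 (adjusted p = 0.0121), and the second was not called without control replicate 1 (LFC 0.92). Blastocysts had the highest levels of H2-Q1, at 6.75, 7.46 and 7.07, a rise of 3.26 ± 0.52 from the morula. H2-Q2 was higher with T247 at the 4-cell stage by the first of 2 probes, which read 9.67, 9.55 and 9.39 in controls and 10.74, 11.03 and 10.46 with T247 (LFC 1.21 ± 0.16, adjusted p = 9.47e-07), whereas the second H2-Q2 probe gave 0.14 ± 0.31 and was not called. H2-Q4 was the only Q gene that had already risen by the 1-cell stage by more than an LFC of 2, from 7.44, 8.10 and 8.32 in MII oocytes to 12.23, 11.71 and 11.86 (LFC 3.98 ± 0.24, adjusted p = 4.72e-14), with 2.25 ± 0.24 more into the 2-cell stage, and was called with no inhibitor. H2-Q5 rose by 1.46 ± 0.18, 1.71 ± 0.18 and 1.11 ± 0.18 in the steps into the 2-cell stage, the 4-cell stage and the morula.

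In the T region, H2-T9 was the gene called higher with both inhibitors at the 1-cell stage. Its probe read 2.50, 2.03 and 2.00 in 1-cell controls, on none well above background, 4.61, 4.69 and 4.42 with T247 and 3.52, 4.57 and 4.18 with MGCD0103, and the treated arrays lay above the controls without overlap. With T247, H2-T9 was at least 1.21-fold higher (adjusted p = 0.000107). For MGCD0103 the adjusted p was 0.00228 and the bound was under 1, so no fold is given. Control replicate 1 was the only 1-cell control with a positive and significant signal, so without it H2-T9 could not be tested with either inhibitor, and its MGCD0103 call was lost when dim signals were set to missing. H2-T9 then rose in untreated embryos to 6.47, 7.52 and 7.16 at the 2-cell stage (at least 6.75-fold), where neither inhibitor was called, and at the 4-cell stage it read 7.23, 7.80 and 6.71 with T247 against 5.85, 5.59 and 5.70 in controls (LFC 1.53 ± 0.42, adjusted p = 0.00445).

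H2-T10, a nonclassical molecule recognised by some gamma delta T cells, was at least 9.05-fold higher at the 2-cell than at the 1-cell stage, with 2-cell controls at 6.33, 8.21 and 7.87. It was called with no inhibitor, and was at least 2.4-fold lower in blastocysts than in morulae. H2-T24 rose by 1.11 ± 0.19 and 1.24 ± 0.19 in the first 2 cleavage steps, the first falling to 0.95 and losing its call without 2-cell control replicate 1. Its values come from a single probe, since its other probe was well above background on no array. With T247 at the 4-cell stage H2-T24 read 8.79, 8.57 and 8.61 against 7.07, 7.34 and 7.66 (LFC 1.29 ± 0.19, adjusted p = 4.01e-06), with no overlap, and at the 2-cell stage the LFC was 0.98 ± 0.19 and not called, or 1.14 and called without control replicate 1. H2-T3 encodes the thymus leukemia antigen, and its 2 probes were called at different stages. One was at least 1.86-fold higher with T247 at the 2-cell stage (adjusted p = 0.00173), with 4.57, 4.88 and 4.99 against 2.14, 2.44 and 3.52. The other H2-T3 probe was at least 1.21-fold higher with T247 at the 4-cell stage (adjusted p = 0.0104), a call that was lost without 4-cell control replicate 2 (LFC 1.14) or 3 (1.15).

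The M region holds class Ib genes of varied and mostly unknown function, and the H2-M10 family in it is known from vomeronasal neurons. H2-M2, H2-M10.3 and H2-M5 each have a second probe that was well above background on no array, so their values come from a single probe. H2-M2 lay above control on every treated array by its detected probe. It read 7.53, 7.84 and 7.94 in 1-cell controls, 8.84, 8.88 and 8.81 with T247 and 8.53, 8.62 and 8.72 with MGCD0103. In 2-cell embryos the same H2-M2 probe read 7.92, 7.81 and 7.96, 9.11, 9.09 and 9.02 and 9.07, 9.13 and 9.17, and at the 4-cell stage 7.80, 7.79 and 7.66 in controls and 8.62, 8.70 and 8.38 with T247. No treated array overlapped with the controls of its stage. The LFC with T247 was 1.08 ± 0.13 (called; 0.96 and not called without 1-cell control replicate 1), 1.18 ± 0.13 (called) and 0.82 ± 0.13 (not called), and with MGCD0103 0.85 ± 0.13 (not called) and 1.23 ± 0.13 (called). In untreated embryos H2-M2 rose from the 8-cell stage to the morula (LFC 1.69 ± 0.13).

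H2-M10.3 was at least 2.9-fold higher with T247 and at least 4.99-fold higher with MGCD0103 at the 2-cell stage (adjusted p = 0.00145 and 4e-05), with controls at 4.82, 2.92 and 3.04, T247 at 5.47, 6.11 and 5.53 and MGCD0103 at 6.50, 6.10 and 6.85. The treated arrays of both groups lay above the controls. H2-M10.4 went the other way with MGCD0103 at this stage, at least 1.92-fold lower (adjusted p = 0.000281; LFC -0.97 and not called without MGCD0103 2-cell replicate 3), and at the 4-cell stage it was at least 1.69-fold higher with T247 (adjusted p = 0.00199; 0.83 and not called without T247 replicate 2). H2-M10.2 was also higher with T247 at the 4-cell stage, with 5.93, 6.51 and 5.92 against 4.87, 4.99 and 4.42 (LFC 1.36 ± 0.40, adjusted p = 0.00864; 1.17 and no longer called without T247 replicate 2).

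H2-M11 was at least 2.67-fold higher with T247 at the 4-cell stage (adjusted p = 0.00757) and H2-M5 at least 1.25-fold (adjusted p = 0.00172). In untreated embryos H2-M11 was at least 2.89-fold higher at the 2-cell than at the 1-cell stage and at least 3.19-fold lower at the 4-cell stage. H2-M5 fell where the Q genes rose, falling by 1.98 on the log2 scale into the 2-cell stage and being at least 4.11-fold lower at the 4-cell stage, before it was at least 4.65-fold higher in blastocysts than in morulae.

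Class II genes were detected in embryos, and the 2 chains of the I-A molecule took different courses. H2-Aa, its alpha chain, was highest in GV oocytes, at 7.83, 7.95 and 7.90, and fell to 5.46, 4.89 and 5.77 at the 2-cell stage and 2.04, 2.07 and 2.24 in 4-cell embryos, at least 2.57-fold lower (adjusted p = 3.13e-09). It was called with no inhibitor. H2-Ab1, the beta chain, was near background in oocytes and at the 1-cell stage and read 6.77, 6.05 and 5.65 at the 2-cell stage on its first probe, 7.29, 4.84 and 4.94 at the 4-cell and 8.05, 7.31 and 7.37 at the 8-cell stage. Morulae reached 11.32, 11.27 and 10.31 (LFC 3.39 ± 0.53, adjusted p = 3.68e-06) and blastocysts 9.58, 10.49 and 9.59.

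H2-Ab1 had the largest inhibitor difference of any member measured above background in both groups. At the 2-cell stage its first probe read 8.70, 8.59 and 8.69 with T247 and 8.17, 8.20 and 8.38 with MGCD0103, and the second 8.68, 8.50 and 8.51 and 8.03, 8.18 and 8.27 against 6.40, 5.97 and 5.78 in controls. All treated arrays lay above all controls on both probes. With T247 the LFC was 2.50 ± 0.53 and 2.51 ± 0.43 (adjusted p = 0.000317 and 2.21e-05), and with MGCD0103 2.09 ± 0.53 and 2.10 ± 0.43 (adjusted p = 0.00202 and 0.000225). Without control replicate 1 these H2-Ab1 values were 2.81, 2.69, 2.40 and 2.28. At the 4-cell stage the second probe was higher with T247 (LFC 1.53 ± 0.43, adjusted p = 0.00607) and the first was not called, with 4-cell control replicate 1 at 7.29. Without that array the first H2-Ab1 probe gave 1.28 and was called, and the second gave 1.18 and was no longer called. The leukocyte markers, a cell type known for class II, summed to 4776–9272 in 2-cell controls, 9266–10130 with T247 and 7593–8125 with MGCD0103. At the 4-cell stage they summed to 4265–4454 in controls and 6297–8649 with T247. Their part in the H2-Ab1 result was not tested.

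H2-Eb1, the beta chain of the I-E molecule, read 4.08, 4.99 and 5.07 at the 1-cell, 8.38, 8.20 and 8.47 at the 2-cell and 4.30, 4.07 and 4.71 at the 4-cell stage, a rise of 3.64 ± 0.47 followed by a fall of 3.99 on the log2 scale. It rose again from 5.14, 2.00 and 3.31 at the 8-cell stage to 9.60, 10.41 and 8.29 in morulae (LFC 5.95 ± 0.47, adjusted p = 1.2e-11), the largest step of any class II member. At the 4-cell stage it read 6.24, 6.77 and 5.49 with T247, all above control (LFC 1.81 ± 0.47, adjusted p = 0.00334), and at the 2-cell stage it was called with neither inhibitor (LFC 0.39 ± 0.47 and 0.31 ± 0.47).

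The DM molecule, encoded by H2-DMa and H2-DMb1, catalyses peptide exchange on class II molecules, and DO, of which H2-Oa is the alpha chain, inhibits DM. H2-DMa read 4.58, 4.15 and 4.38 at the 1-cell and 6.43, 8.70 and 8.27 at the 2-cell stage (LFC 3.43 ± 0.45), with replicate 1 the lowest 2-cell control. It was lower with both inhibitors at the 2-cell stage, at 5.97, 6.00 and 6.47 with T247 and 5.79, 6.12 and 6.11 with MGCD0103. The T247 group of H2-DMa overlapped with the controls through T247 replicate 3 and control replicate 1, and the MGCD0103 group lay below the controls. The LFC was -1.66 ± 0.45 and -1.79 ± 0.45 (adjusted p = 0.00339 and 0.00167), and -2.34 and -2.48 without control replicate 1. H2-DMa thus moved opposite to H2-Ab1 at this stage.

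H2-DMb1 was called with no inhibitor, although without 4-cell control replicate 1 it was called higher with T247 at the 4-cell stage (LFC 2.09), and it rose by 3.03 ± 0.52 from the 8-cell stage to the morula. H2-Oa was high in GV oocytes, at 11.78, 11.51 and 11.61, and read 6.93, 6.93 and 6.76 in MII oocytes (LFC -4.76 ± 0.22, adjusted p = 5.31e-18) and 6.83, 6.48 and 5.38 at the 4-cell stage, before a rise into the morula (LFC 2.95 ± 0.22). With T247 at the 4-cell stage H2-Oa read 8.11, 8.38 and 8.09, all above control (LFC 1.96 ± 0.22, adjusted p = 5.85e-08). In 2-cell embryos it lay lower with T247, at 6.68, 6.89 and 6.62 against 7.52, 7.87 and 7.71 (LFC -0.97 ± 0.22), under the fold limit, and it was called without control replicate 1 (LFC -1.06).

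H2-Ke2 (Pfdn6), a subunit of the prefoldin chaperone, fell from 13.64, 13.65 and 13.60 in GV oocytes to 7.82, 8.05 and 7.90 in MII oocytes (LFC -5.70 ± 0.16) and rose from the 2-cell to the 4-cell stage (LFC 4.19 ± 0.16). Its 2-cell values were 8.80, 9.93 and 9.76 in controls, 7.86, 7.73 and 7.72 with T247 and 7.78, 7.75 and 7.69 with MGCD0103. All treated arrays lay below all controls, with an LFC of -1.73 ± 0.16 and -1.76 ± 0.16 (adjusted p = 5.52e-10 and 3.21e-10), and -2.07 and -2.10 without control replicate 1. H2-Ke6 (Hsd17b8), a hydroxysteroid dehydrogenase, fell from the 1-cell to the 2-cell stage (LFC -3.13 ± 0.17) and rose into the morula (LFC 2.30 ± 0.17), and it was called with no inhibitor against control.

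The inhibitors were compared directly at the same dose and time, in 40 members at the 1-cell stage and 48 in 2-cell embryos, with p-values adjusted over all probes. No member was called at the 1-cell stage, where 0.25% of all probes were called. At the 2-cell stage 3 members were called (6.25%, against 5.59% of all probes). H2-Q8 was lower with MGCD0103 than with T247 (LFC -1.20 ± 0.27, adjusted p = 0.00239), as was H2-M11 (LFC -1.49 ± 0.46, adjusted p = 0.0211), with 4.85, 4.40 and 5.41 against 6.42, 6.47 and 6.23. The H2-M11 call was lost in 4 fits that left out single arrays. H2-Ke6 was higher with MGCD0103, at 9.5, 9.52 and 9.47 against 8.38, 8.48 and 8.42 with T247 (LFC 1.07 ± 0.17, adjusted p = 8.26e-05). Tapbp was lower with MGCD0103 (LFC -0.89 ± 0.15, adjusted p = 0.000102), within the fold limit. For the 10 probes called with both inhibitors, no difference was called, and the 95% intervals were -0.63 to 0.091 for H2-D1, -0.53 to 0.39 for H2-K1 probe 1, -0.22 to 0.32 for H2-M2, -1.49 to 0.68 for the first H2-Ab1 probe, -1.05 to 0.77 for H2-DMa and -0.28 to 1.84 for H2-M10.3. They were -1.29 to 0.47 for the second H2-Ab1 probe, -1.76 to 0.35 for H2-Q1 and -0.35 to 0.29 for H2-Ke2. For H2-Q10 the LFC was -1.16 ± 0.46 (adjusted p = 0.0735, not called), with an interval of -2.09 to -0.22. Differences of more than an LFC of 1 are thus within the interval for H2-Ab1, H2-DMa, H2-M10.3, H2-Q1 and H2-Q10 and outside it for H2-D1, H2-K1 probe 1, H2-M2 and H2-Ke2.

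**Figure D4:**
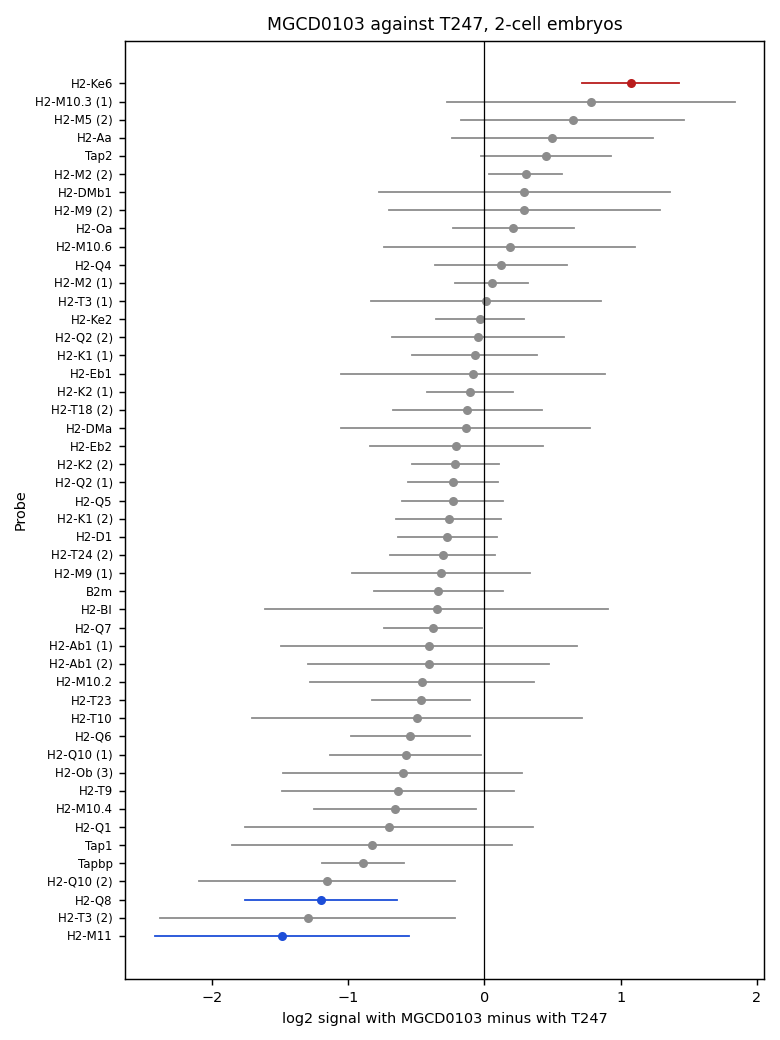
LFC of MGCD0103 minus T247 at the 2-cell stage (x axis, log2) with its 95% confidence interval for the 48 member probes tested, 1 row each. Red marks the probe called higher with MGCD0103 (H2-Ke6), blue those called lower (H2-Q8 and H2-M11) and grey those not called, and the black vertical line marks no difference.

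The change of an inhibitor effect between stages was tested as an interaction. T247 effects differed between the 1-cell and 2-cell stages for 8 of 36 members (22.2%, against 15.9% of all probes) and between the 2-cell and 4-cell stages for 10 of 39 (25.6%, against 23%). MGCD0103 effects differed between the 1-cell and 2-cell stages for 8 of 36 (22.2%, against 17.4%). H2-D1 and H2-K1 probe 1 were among these in both inhibitors' change from the 1-cell to the 2-cell stage, with a larger effect at the 2-cell stage.

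Most genes that supply peptides or help load them were not called with the inhibitors at the 2-cell stage, and those called were lower. Of 10 such genes, 9 were tested with T247, and Calr (LFC -1.27) and Pdia3 (-1.93), chaperones of the class I loading complex, were called lower and 0 higher. With MGCD0103, 3 of 8 were called lower and 0 higher (Calr -1.14, Pdia3 -2.09 and the immunoproteasome subunit Psmb8 -1.58). Without 2-cell control replicate 1, 5 genes of this list were called lower with each inhibitor. Of all probes tested with all arrays, 13.6% were called lower with T247 and 13.1% with MGCD0103. Of 9 genes of the list tested with T247 at the 4-cell stage, 2 were called higher and 0 lower, beside 12% and 5.25% of all probes. They were Psmb10 (LFC 1.01), an immunoproteasome subunit, and Psme2 (LFC 1.50), a subunit of the proteasome activator. The median LFC of the genes tested there was -0.21, and that of all probes 0.027. In untreated embryos Psmb9, another immunoproteasome subunit, was well above background on 0 of 3 1-cell arrays and on 2 of 3 2-cell arrays, where it was called higher, and it rose by 5.52 from the 8-cell stage to the morula. From the 8-cell stage to the morula 5 of 8 genes of this list were called higher, including Calr (LFC 3.27), beside 23.9% of all probes.

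Of 16 regulators of MHC promoters, 1 was called higher and 3 lower at the 2-cell stage with each inhibitor, beside 9.03% and 13.6% of all probes with T247 and 11.8% and 13.1% with MGCD0103. Without control replicate 1 the counts were 2 and 3 (Usf2 with T247 and Nfkb1 with MGCD0103 newly higher). The genes called lower with both included Creb1 (not well above background on any treated array, so no fold is given) and Nfyb (LFC -1.40 with T247 and -1.90 with MGCD0103), a subunit of the CCAAT-binding factor. Ciita, the transactivator of class II genes, was higher with T247 at the 2-cell stage (LFC 1.36) and again in 4-cell embryos (LFC 1.83), and with MGCD0103 it was not called (LFC 0.49). Usf2 was the regulator called higher with MGCD0103 (LFC 1.57). Nlrc5, the transactivator of class I genes, was not called with either inhibitor. Among 4 class II accessory genes, Ifi30, a lysosomal thiol reductase, was higher at the 2-cell stage (LFC 1.58 with T247 and 1.44 with MGCD0103), 1 other gene was called lower with MGCD0103 without control replicate 1 (Ctss), and Cd74, the invariant chain, was higher at the 4-cell stage with T247 (LFC 1.19). In untreated embryos Cd74 was well above background on no 1-cell array and on all 3 2-cell arrays.

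Of 11 interferon-induced genes tested at the 2-cell stage, 1 was called higher and 1 lower with T247 and 1 higher and 2 lower with MGCD0103, beside the same shares of all probes. Without control replicate 1 these counts were 1 and 3 with T247 and 1 and 5 with MGCD0103. Ifi44, well above background on no 2-cell control and on all 6 treated 2-cell arrays, was called higher with both. Bst2 was called lower with T247 (LFC -1.16), and Irf7 and Stat2 lower with MGCD0103 (LFC -1.22 for Stat2, with Irf7 not well above background there). At the 4-cell stage with T247, 2 of 6 were called higher and 0 lower, beside 12% and 5.25% of all probes. They were Isg15 (LFC 2.12) and Irf7, which was well above background on no 4-cell control. The median LFC of the 6 genes tested was 0.0098, and that of all probes 0.027. Of 10 class I-like genes outside H2, 3 were called lower with T247 at the 2-cell stage (Mill2 with an LFC of -3.37, Raet1e with -1.44 and Fcgrt, not well above background there) and 1 with MGCD0103 (Mill2; 2 without control replicate 1), and 0 higher. None of the genes of these 5 lists was called at the 1-cell stage. The median LFC of the peptide supply genes tested was 0.092 with T247 and -0.77 with MGCD0103 at the 2-cell stage, and that of the regulators -0.55 and -0.012, where the medians of all probes tested were -0.21 and 0.042.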

How the data were processed

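Total RNA of 100 oocytes or embryos was labelled with Cy3 and hybridized by the authors to 1-colour Agilent mouse arrays, 39 in all. The deposited values are intensities, the processed signals of Agilent Feature Extraction (9.5.1.1 in the submitters' processing notes, 10.7.1.1 in the file headers), background-subtracted and not normalized between arrays. The authors also deposited a table of log2 values for 19143 probes after filtering and imputation, used here only as an alternative. The fold changes reported here were computed from the processed signals.

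Control spots and outlier spots (0.2196% of spots) were left out, spots of 1 probe were averaged, and log2 values were normalized by smooth quantile normalization over the 13 conditions (window 0.05, own implementation). The authors' imputation was not repeated. One limma fit (limma 3.58.1, R 4.3.3) held all 39 arrays and 55197 probes detected in at least 1 condition, with no covariate and a median of 28.34 total degrees of freedom. Tests were 2-sided, with Benjamini-Hochberg adjustment over all probes tested in a comparison, and were tested on simulated data. With 3 arrays in each condition, precision is limited by their number. Between 44.387% and 58.295% of probes were well above background on an array and 0 saturated.

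Genes named with values were B2m, Tap1, Tap2, Tapbp, H2-K1, H2-D1, H2-T23 and every member called in at least 1 inhibitor comparison or 2 developmental steps. The members and lists were chosen with earlier results of these data known, and a gene of the regulator list is not reported here by name. Alternatives were other scalings, background correction, detection filters, blocks for replicate number or slide, subsets of arrays, the deposited log2 table and leaving out each array. RefSeq tables matched 48 probes by accession, 9 by symbol and 1 by synonym, and 1 (H2-T9) did not match.

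Same-numbered arrays of treated and control embryos were correlated in their deviations from the group means by -0.1296 to 0.1308, and those of consecutive untreated stages, which shared a slide, by 0.033 to 0.2353, with all 3 pairs over 0.1 only from the 4-cell to the 8-cell stage, where the replicate block left the 9 calls at 9. Elsewhere replicate numbers were not taken to pair the samples.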

Additional observations from a re-analysis of the deposited data

Results flagged for a closer look

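The following values are changes of an inhibitor effect between stages (the LFC at the later stage minus that at the earlier one, limma interaction, adjusted p below 0.05). No group held enough arrays for a check of single outlying samples. Where a probe was not well above background in a condition involved, the value is a fitted difference that rests on near-background signal. Among others, this holds for H2-Ab1, H2-M10.3 and the H2-Q10 probe in 1-cell embryos and for H2-T9 in 1-cell controls. Between 1-cell and 2-cell embryos, the T247 effect grew for H2-D1 (1.78), H2-K1 probe 1 (1.79), H2-M10.3 (2.06), H2-Ab1 (2.70) and H2-Bl (2.40), and shrank or turned negative for H2-T9 (-2.13), H2-DMa (-1.79) and H2-Ke2 (-1.87). H2-Bl, a T region gene not called with either inhibitor, owes its value to a 1-cell control group in which replicate 2 read 9.72 and the other two 5.10 and 5.06. Without 2-cell control replicate 1, H2-K1 probe 2 (1.13), H2-Q2 (1.04) and H2-Q10 (-1.75) were newly called.

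The MGCD0103 effect between the same stages grew for H2-D1 (1.44), H2-K1 probe 1 (1.48) and H2-M10.3 (3.06), and was lower at the 2-cell stage for H2-Q10 (-2.49), H2-Q8 (-1.83), H2-T9 (-2.28), H2-DMa (-2.57) and H2-Ke2 (-1.86). Both inhibitors were set against the same control arrays, so these values are not independent of those for T247. Without 2-cell control replicate 1, B2m (-1.17) and H2-M11 (-1.97) were newly called with MGCD0103.

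Between 2-cell and 4-cell embryos, the T247 effect rose for H2-Q8 (1.42), H2-T3 (1.52), H2-M10.4 (1.90), H2-M5 (1.81), H2-DMa (1.72), H2-Oa (2.93), H2-Ke2 (1.60) and H2-Ke6 (1.03), and fell for H2-M10.3 (-3.11) and H2-Ab1 (-2.02). Without 2-cell control replicate 1 the values for H2-M5 (1.25) and H2-Ke6 (0.70) were no longer called. Newly called in that fit were Tap1 (2.38), H2-Q10 (1.99), H2-M10.2 (1.85), H2-T9 (1.56) and H2-K1 probe 1 (-1.22).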

How the results depend on the processing

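Counts of called members moved by more than 1.5 times from those reported in the following cases. With normexp background correction, which compresses dim probes, 0 members were called with T247 and 0 with MGCD0103 at the 1-cell stage, 7 with T247 at the 2-cell and 5 at the 4-cell stage, 1 for MGCD0103 minus T247 at the 2-cell stage, 6 from GV to MII, 4 from MII to the 1-cell stage and 3 from the 4-cell to the 8-cell stage. Under 75th percentile scaling the counts were 7 from GV to MII, 1 with T247 at the 1-cell stage and 14 for the T247 change from the 1-cell to the 2-cell stage, and under quantile normalization 6, 1 and 14, with 5 for MGCD0103 minus T247 at the 2-cell stage. These scalings moved the median of all probes from GV to MII by 1.29 and 0.84, and the reversals were all in that step: H2-K1 probe 2 (0.28 and 0.26), H2-K2 (0.27 and 0.28), H2-M2 (0.25 and 0.21), H2-M5 (0.044 and 0.0061) and H2-T23 (0.18 and 0.12) under both, H2-Q2 (0.15) and H2-Q6 (0.058) under the first and Tap2 (0.013) under the second. Under the same scalings the split was 14 higher and 5 lower and 13 and 4 from the 8-cell stage to the morula, 3 and 11 and 3 and 8 from the morula to the blastocyst, and 5 and 4 and 5 and 5 for the T247 change from the 2-cell to the 4-cell stage. It was 13 higher and 2 lower and 14 and 3 with T247 at the 2-cell stage.

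With no fold limit the counts were 8 and 4 at the 1-cell stage (T247 and MGCD0103), 20 and 19 at the 2-cell stage, 15 for the T247 change from the 1-cell to the 2-cell stage, 15 from MII to the 1-cell stage and 14 from the 4-cell to the 8-cell stage. From the deposited log2 table, which holds 24 members, they were 1 and 0 at the 1-cell stage, 5 and 6 in 2-cell embryos, 6 with T247 at the 4-cell stage, 4 and 5 for the T247 changes between stages and 5 for that of MGCD0103. A filter of well above background on all 3 arrays of 1 condition gave 0 with MGCD0103 at the 1-cell stage, 6 for the T247 change from the 2-cell to the 4-cell stage and 5 for the MGCD0103 change, setting dim signals to missing gave 0 with MGCD0103 at the 1-cell stage, and the 24 arrays of the inhibitor experiment gave 5 for the T247 change from the 1-cell to the 2-cell stage. Fewer probes are tested under the filter, with the 24 arrays and in the deposited table. For the other cases the cause was not tested.

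Leaving out single arrays gave 2–3 and 0–1 called members at the 1-cell stage (T247 and MGCD0103), 10–15 and 11–15 at the 2-cell stage, 12–16 in T247 4-cell embryos, 0–0 and 2–4 for MGCD0103 minus T247 at the 1-cell and 2-cell stages, and 5–11, 7–13 and 8–10 for the changes between stages (T247 2-cell minus 1-cell, T247 4-cell minus 2-cell and MGCD0103). For the steps in order the ranges were 14–22, 6–8, 23–25, 22–26, 5–10, 20–23 and 9–12.

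With replicate number as a block the counts were 2, 1, 12, 12 and 15 in the 5 inhibitor comparisons, and the block moved no count by over 1.5 times, nor did slide as a random block (consensus correlation 0.0533) or, in the steps, as a fixed block (17, 8, 25, 24, 8, 21 and 11 called). Since treated and untreated samples shared no slide, the random block cannot separate slide from inhibitor. Of 181 called values of the named genes, 88 lost the call under at least 1 alternative and 8 reversed, and of 428 values not called, 85 were called under at least 1. Low signal is a limit, since 12 member probes were well above background on no array.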
